A study of Drosophila melanogaster with 3 samples.

Results

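Broad binding regions of Ultrabithorax (Ubx) that stood neither in dense runs of peaks nor alone were examined on the long autosomal arms of Drosophila, namely 2L with 2R and 3L with 3R. A peak was counted as broad when it measured 1500 bp or more in the peak list deposited by the authors. Peaks in a run, meaning 6 or more peaks whose successive midpoints lay at most 5000 bp apart, were set aside. So were isolated peaks, which had no other midpoint within 15000 bp. The broad peaks were thus chosen by measured width and spacing. This left 605 broad peaks of the 10337 in the whole list, or 5.85%. The narrower peaks under the same spacing conditions numbered 5478 and served for comparison.

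The peaks come from chromatin immunoprecipitation and sequencing (ChIP-seq) with an antibody against the HA tag in S2-DRSC cells, a fly line of late embryonic origin, stably carrying HA::Ubx. The series holds 2 replicates of the HA immunoprecipitation and 1 input sample. Both kinds of sample came from that same line, with 10% fetal bovine serum, and had 10 micromolar copper sulphate for 24 h. One peak list serves both replicates, and a line without HA::Ubx or without copper is not among the samples analysed here, so no value below has a replicate error and no difference was tested between samples. The labels do not say whether the replicates were separate cultures, nor whether the line is 1 clone. Depth per library is unknown, and the intervals given cover counting error only and take peaks as independent, which neighbours are not.

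Ubx is a Hox protein, a transcription factor with a homeodomain that gives body segments their identity. In the fly it is best known for shaping the third thoracic segment, where it directs the formation of halteres in place of wings. It binds short sites rich in A and T, often together with the cofactors Extradenticle and Homothorax, and regulatory regions bound by Hox proteins may hold several such sites near each other. In ChIP-seq a peak is a stretch in which immunoprecipitated fragments pile up, and its width depends on how far that pile-up extends and on how the peak caller joins neighbouring stretches.

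Width and spacing are given here as a description. Score and width come from the same peak call, so the score is described too, without a test. Positions are 1-based dm3 coordinates. Sequence and gene annotation of dm3 were not used here, and peaks are therefore given by position without sequences, genes or motifs.

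Most of the broad peaks were not far above the width limit. Their median width was 1903 bp (interquartile range 1669 to 2410 bp), and the widest measured 6890 bp. In all, 341 of the 605 (56.4%) measured less than 2000 bp. A further 127 lay between 2000 and 2499 bp, 74 between 2500 and 2999 bp, 49 between 3000 and 3999 bp, and 14 reached 4000 bp or more. The narrower peaks had a median of 587 bp. The broad peaks made up 9.95% of the 6083 peaks that met the spacing conditions, and they held 26.3% of the base pairs those peaks covered, 1.30 Mb in all.

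The peaks just inside the width limit measured 1501 bp (3R:5326986-5328486, score 42.9), 1502 bp (2L:865094-866595, score 27.2) and 1503 bp (2R:5618690-5620192, score 10.5). Just outside it lay peaks of 1498 bp on 2R (10413344 to 10414841, score 27.2), 1498 bp on 3R (1076257 to 1077754, score 27.8) and 1496 bp on 2R (17948039 to 17949534, score 30.7). Of the 3 scores inside the limit, 1 lay above those outside it, 1 lay below them and 1 was about equal to the lowest of them.

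Broad peaks scored somewhat higher than the narrower ones as a whole, and about as high as the peaks next to them in width. The median score was 27.9 for broad peaks (interquartile range 18.2 to 46.3, 95% interval of the median 26.3 to 30.5). It was 24.95 for narrower peaks (16.4 to 38.6, 95% interval 24.4 to 25.5), a difference of 2.996 score units. Against the 889 narrower peaks that measured at least 1000 bp, whose median was 28.3 (18.8 to 44.4), the difference was -0.39, within the interval of either median. The comparison with all narrower peaks therefore rested on the peaks below 1000 bp.

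Going through the widths in steps showed where the score stopped climbing. The median score was 16.2 in peaks under 300 bp, 20.7 at 300 to 399 bp, 24.3 at 400 to 499 bp and 26.1 at 500 to 599 bp. It was then 27.3 at 600 to 799 bp, 28.1 at 800 to 999 bp, 28.5 at 1000 to 1199 bp and 28.3 from 1200 bp up to the limit. Among the broad peaks it was 29.2 at 1500 to 1999 bp, 27.7 at 2000 to 2499 bp, 27.3 at 2500 to 2999 bp and 27.4 at 3000 bp and above. Each step from 800 bp upwards had a median inside the intervals of its neighbours. Across the 605 broad peaks, Spearman's rho between width and score was 0.0094 and Pearson's r was -0.0017. Across the narrower peaks rho was 0.21, with 0.24 over the 2842 peaks under 600 bp and 0.031 over the 2636 peaks of 600 bp or more. These coefficients describe 1 list, and peaks are not replicates.

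**Figure D1:**
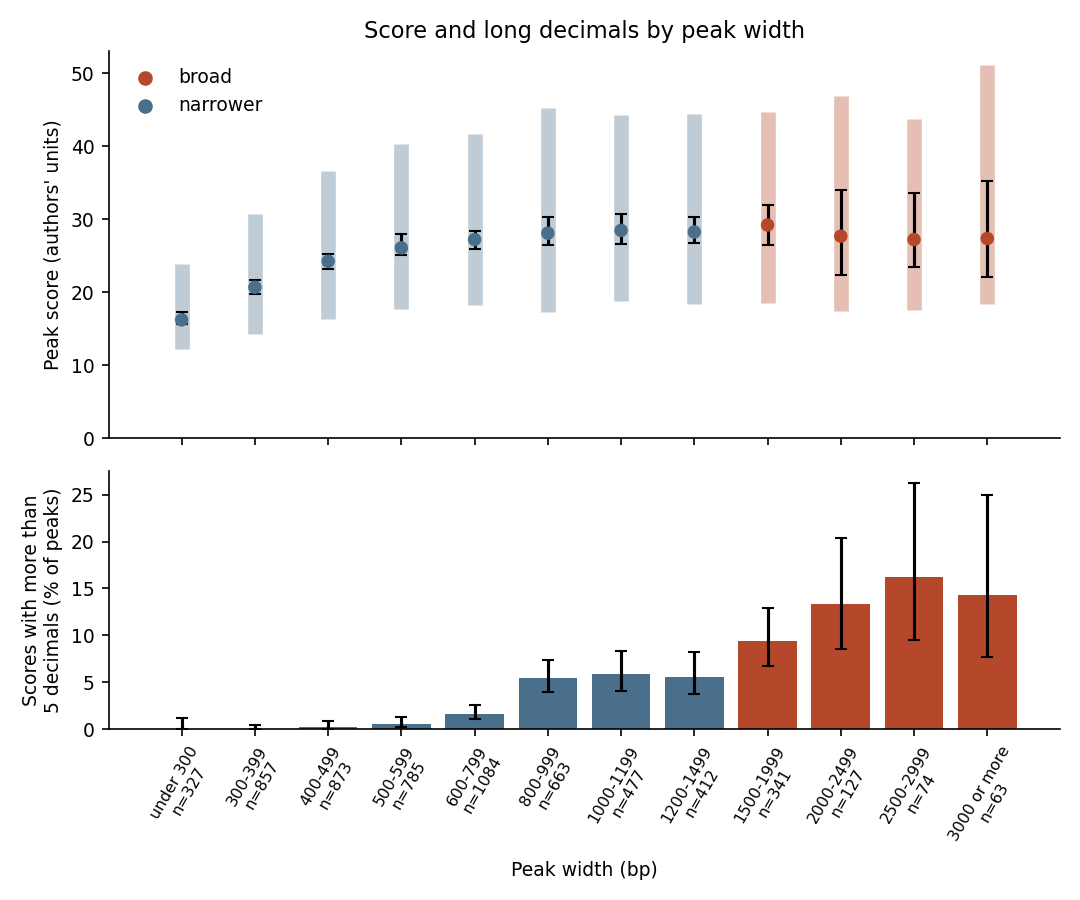
Upper panel: peak score (vertical axis, authors' units) by class of peak width (horizontal axis, bp) for the 6083 peaks between runs and isolation, with points for medians, black bars for 95% intervals of the median and pale bars for interquartile ranges. Lower panel: percentage of peaks whose score was written with more than 5 decimals, with Wilson 95% intervals. Medians level off from about 800 bp at 27 to 29, while the share of long decimals goes on to 16.2% at 2500 to 2999 bp.

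At the low end, no broad peak scored under 8.36, and 12 of 605 (1.98%, Wilson 95% interval 1.14% to 3.43%) scored under 10. Among narrower peaks 174 of 5478 (3.18%, 2.74% to 3.67%) scored under 10, and the lowest was 2.21. Of those of at least 1000 bp but under the width limit, 15 of 889 did (1.69%, 1.03% to 2.77%), a share close to that of the broad peaks. The lowest-scoring broad peaks were 3L:8281765-8283353 at 8.36, 3R:4724524-4727203 at 8.64 and 2R:11240184-11241754 at 9.09.

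At the high end, 86 broad peaks (14.2%, 11.7% to 17.2%) reached 58.3, the score that the top 10% of peaks on the 4 arms reached. Of narrower peaks, 474 (8.65%, 7.94% to 9.43%) did, and of those of at least 1000 bp but under the width limit, 105 (11.8%, 9.85% to 14.1%). The top 1% of the arms, at 95.7 or more, took in 14 broad peaks (2.31%, 1.38% to 3.85%), 41 narrower ones (0.748%, 0.552% to 1.01%) and 5 of those of at least 1000 bp but under the width limit (0.562%, 0.240% to 1.31%). Broad peaks thus differed from those of at least 1000 bp but under the width limit more in the extreme scores than in the median, but the counts there are small and the shares were not tested.

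The 10 broad peaks with the highest score lay between 101.6 and 173.9, and each of the 10 had the highest score of every peak within 15000 bp, which their choice by score made likely. Their median width, 1975 bp, was close to the 1903 bp of the 605. On 2L, the peak at 14533807 to 14535443 (1637 bp) led with 173.9. Its sole neighbour within 15000 bp was a peak of 731 bp with a score of 19.2. Another of the 10, 2L:14515094-14516671 (1578 bp, score 123.6), stood on the other side of that weak peak, whose midpoint lay 10523.5 bp from its own. Another strong peak with a sparse setting was 3L:7624514-7627034 (2521 bp, score 165.9), with 1 neighbour of 343 bp and score 24.2 within the limit. These 3 had no other midpoint within 5000 bp.

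The other 7 of the 10 stood in short chains, meaning 2 to 5 peaks with successive midpoints at most 5000 bp apart. The peak 3R:14273638-14275204 (1567 bp, score 112.9) lay 390 bp from a peak of 828 bp that itself scored 87.8. At 3L:16702920-16704956 (2037 bp, score 112.6) the flanking peaks began 98 bp and 320 bp from its edges and scored 22.9 and 17.8. The peak 3R:27245862-27247559 (1698 bp) scored 111.8 and was 3044 bp from a peak scoring 18.6. The highest score among broad peaks of 2R, 111.1, belonged to 14687831 to 14691129 (3299 bp), which had 1 neighbour, of 956 bp and score 12.9, at a distance of 327 bp. The peak 2L:3151914-3154227 (2314 bp) scored 104.6 with 6 others within 15000 bp, of which the strongest scored 61.6. At 3L:1083559-1087276 (3718 bp, score 103.2) a weak peak of 14.8 lay 58 bp away, and another broad peak, of 3029 bp and score 73.0, had its midpoint 10651.5 bp away. The last, 3R:21831473-21833385 (1913 bp, score 101.6), was flanked at 530 bp by a peak scoring 74.3 and at 260 bp by one scoring 31.7. The peaks nearest to these 7 scored between 12.9 and 31.7, apart from the one that scored 87.8.

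The 10 widest measured 4212 to 6890 bp and had a median score of 27.5, and 3 of the 10 had the highest score within 15000 bp. Both values were close to those of the whole set, a median of 27.9 and a share of 25.8%. The widest of all, 2L:2729514-2736403 (6890 bp), scored 24.8, and its single neighbour within the limit, 333 bp wide, scored 53.1. On 3R, 5753826 to 5759321 (5496 bp) scored 63.6 and outscored its 3 neighbours, which reached 22.3 at most. The peak that opened the dm3 sequence of 2L, from 23 to 5491, measured 5469 bp, scored 30.1 and was separated by 43 bp from a peak of 510 bp that scored 45.6. The widest of 3L, 818820 to 824148 (5329 bp), scored 12.9, against 31.3 for the nearest of its neighbours, a peak of 541 bp. The next were 3R:25606304-25611374 (5071 bp, score 22.8) and 3R:26604439-26609508 (5070 bp, score 16.0), with 4 and 5 others within 15000 bp. Among the rest, 2L:13203638-13208257 (4620 bp, score 57.1) and 2R:19757614-19761825 (4212 bp, score 35.2) outscored their neighbours, while 2L:221035-225651 (4617 bp, score 41.3) and 2L:1423801-1428385 (4585 bp, score 21.1) did not. Of the 60 highest-scoring and the 60 widest of the 605 broad peaks, 7 were in both sets. This overlap was not tested, and over all 605 Spearman's rho between width and score was 0.0094.

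**Figure D2:**
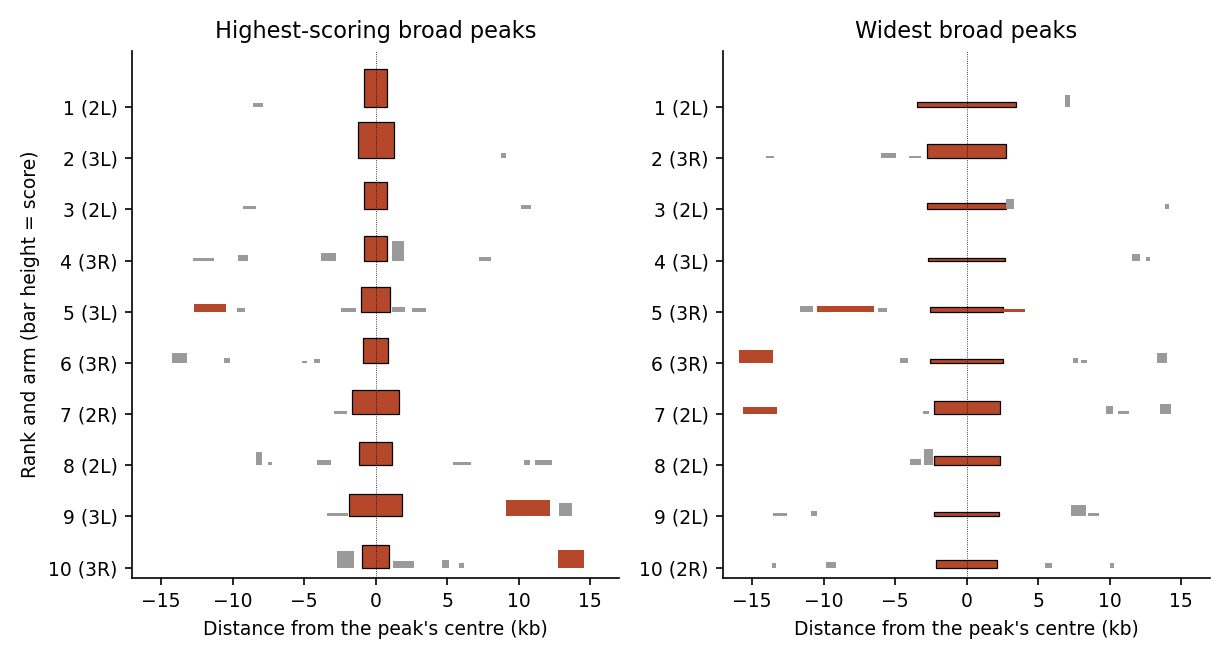
Surroundings of the 10 broad peaks with the highest score (left) and of the 10 widest (right), 1 peak per row in order of rank, against distance from the peak's centre in kb. Bars are peaks drawn to their width, bar height is proportional to the score, red bars are broad peaks of the set described and grey bars are other peaks. The central bars on the left are the tallest of their rows in 10 of 10 cases, as their choice by score made likely, and those on the right in 3 of 10, close to the 25.8% of the whole set.

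Over the whole set, broad peaks were the strongest of their surroundings about as often as narrower ones. The highest score within 15000 bp belonged to the broad peak in 156 of 605 cases (25.8%, Wilson 95% interval 22.5% to 29.4%) and to the narrower peak in 1409 of 5478 (25.7%, 24.6% to 26.9%). In peaks under 300 bp the share was 12.8%, and in those of at least 1000 bp but under the width limit 28.01%. The chance of leading falls with the number of competitors, and broad peaks had a median of 4 other midpoints within 15000 bp, narrower ones 3. With 4 others present, 36 of 140 broad peaks led (25.7%, 19.2% to 33.5%), and 211 of 1057 narrower ones (19.96%, 17.7% to 22.5%). With 3 others it was 38 of 112 (33.9%, 25.8% to 43.1%) for broad and 275 of 1103 (24.9%, 22.5% to 27.6%) for narrower peaks, and with 5 others 21.3% for broad and 16.9% for narrower peaks. With 2 others the order was the opposite, 23 of 96 (23.96%, 16.5% to 33.4%) for broad and 333 of 1027 (32.4%, 29.6% to 35.3%) for narrower peaks. The broad share was also the lower one with 1 other (48.1% for broad and 49.5% for narrower peaks), 6 others (10.5% and 13.2%) and 7 others (10.7% and 12.97%), and the higher one with 8 others (18.8% and 9.30%, from 16 broad peaks). Set against the single nearest peak, measured from edge to edge, the broad peak scored higher in 311 of 605 cases (51.4%, 47.4% to 55.4%) and the narrower peak in 2705 of 5478 (49.4%, 48.1% to 50.7%). Spearman's rho between the score of a broad peak and that of its nearest peak was 0.0062 over the 605 peaks (Pearson's r 0.0088).

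The edges of broad peaks lay nearer to other peaks. The median gap from the edge of a broad peak to the edge of the nearest peak was 1037 bp (interquartile range 247 to 3453 bp, 95% interval of the median 768 to 1289 bp), against 1697 bp for narrower peaks (321 to 4261 bp, 95% interval 1609 to 1780 bp). For those of at least 1000 bp but under the width limit it was 1392 bp (95% interval 1185 to 1672 bp). A gap under 500 bp was found for 240 broad peaks (39.7%, 35.8% to 43.6%) and for 1715 narrower ones (31.3%, 30.1% to 32.5%). In the class from 1000 bp up to the width limit it was found for 312 of 889 (35.1%, 32.0% to 38.3%), an interval overlapping that of the broad peaks. Another peak within 1000 bp on both sides was found for 57 broad peaks (9.42%, 7.34% to 12.01%) and 296 narrower ones (5.40%, 4.84% to 6.03%). The spacing conditions count midpoints, and a broad peak reaches farther from its midpoint, so the width itself shortens the gap. How much of the difference in gaps the width makes up was not tested. Measured between midpoints, the nearest peak was 2643.5 bp away for broad peaks and 2408 bp for narrower ones, the opposite order.

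**Figure D3:**
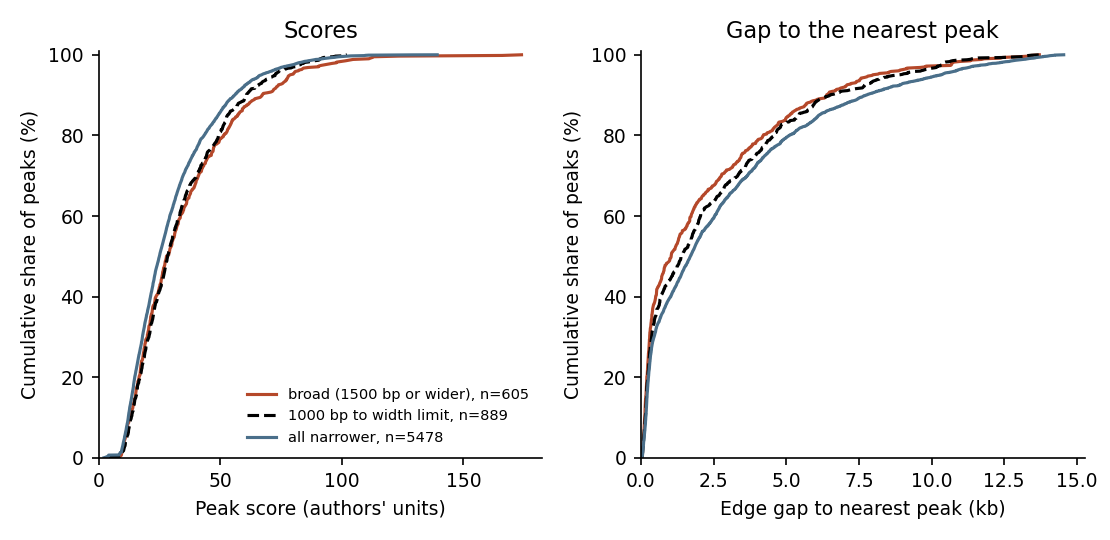
Cumulative share of peaks (%) against score in the authors' units (left) and against the edge gap to the nearest peak in kb (right) for broad peaks, peaks of at least 1000 bp but under the width limit and all narrower peaks. The curves of scores for broad peaks and for those of at least 1000 bp run together up to about the median, at 27.9 and 28.3, and the gap curve of broad peaks rises first, with a median of 1037 bp.

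By place in the local chain, 152 broad peaks (25.1%) had no other midpoint within 5000 bp, 310 (51.2%) stood at the end of a chain and 143 (23.6%) inside one. The corresponding shares of narrower peaks were 24.8%, 54.4% and 20.7%. By size of chain, 150 broad peaks stood in chains of 2, 124 in chains of 3, 102 in chains of 4 and 77 in chains of 5. The broad share was 10.0% of peaks standing alone (8.63% to 11.7%), 8.82% in chains of 2 (7.57% to 10.3%), 9.33% in chains of 3, 11.4% in chains of 4 (9.47% to 13.6%) and 11.9% in chains of 5 (9.66% to 14.7%), and these intervals overlapped. Outside the spacing conditions, 182 of 1545 peaks in runs (11.8%, 10.3% to 13.5%) and 22 of 495 isolated peaks (4.44%, 2.95% to 6.64%) measured 1500 bp or more. The interval of the isolated peaks lay below the 9.22% to 10.7% of the peaks between runs and isolation. Broad peaks in chains of 5 had a median score of 33.1 (95% interval 29.2 to 37.7), against 27.1 (23.7 to 32.5) for those alone. In chains of 2, 3 and 4 it was 26.7, 28.5 and 27.2, close to the value of those alone, so the score did not climb step by step with the size of the chain. Broad peaks in runs had 34.0 (29.1 to 37.5). For narrower peaks the median was 23.5 (22.3 to 25.4) in chains of 5 and 25.6 (24.4 to 27.0) for those alone.

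The nearest peak was itself 1500 bp or wider for 78 broad peaks (12.9%, 10.5% to 15.8%), against 546 narrower peaks (9.97%, 9.20% to 10.8%). Among narrower peaks of at least 1000 bp the share was close to that of the broad peaks, 110 of 889 (12.4%, 10.4% to 14.7%). The nearest peak of a broad peak had a median width of 708 bp and a median score of 26.8, against 626 bp and 25.1 for narrower peaks. Linked by midpoints within 15000 bp, 379 broad peaks had no other broad peak of the set near them, 150 formed 75 pairs, 60 formed 20 groups of 3 and 16 formed 4 groups of 4. The groups of 4 lay on 2R at 6421233 to 6433816 (scores 13.1 to 54.1), on 3L at 625626 to 642481 (15.2 to 31.7), on 3L at 864884 to 882396 (18.9 to 57.6) and on 3L at 3224675 to 3251906 (30.1 to 46.4).

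Broad peaks that directly followed each other in the list formed 72 pairs, and 22 of these pairs had less than 500 bp between their edges. The smallest gap, 45 bp, separated 3R:25606304-25611374 (score 22.8) from a peak of 1516 bp at 25611420 to 25612935 (score 12.4). Gaps of 47 bp and 62 bp followed, between 2R:11240184-11241754 (score 9.09) and 2R:11241802-11243367 (score 29.8) and between 2L:125279-127317 (score 37.3) and 2L:127380-130153 (score 9.53). At 103 bp, 2R:6427392-6429551 scored 13.1 and 2R:6429655-6431170 scored 54.1, and at 118 bp, 3R:26160670-26163195 scored 42.3 and 3R:26163314-26164914 scored 95.9. In these 5 pairs the higher score was 1.84 to 4.11 times the lower, so peaks almost touching each other could differ widely in score. Over the 72 pairs the median ratio of the higher to the lower score was 1.79, and the largest was 6.97.

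The 4 arms carried 119 broad peaks on 2L, 135 on 2R, 156 on 3L and 195 on 3R. Over the stretch of each arm that its outermost peaks enclose this was 5.17 per Mb on 2L (exact Poisson 95% interval 4.28 to 6.19), 6.39 on 2R (5.35 to 7.56), 6.37 on 3L (5.41 to 7.46) and 6.99 on 3R (6.05 to 8.05). As a share of the peaks under the same spacing conditions, broad peaks made up 8.95% on 2L (7.53% to 10.6%), 9.36% on 2R (7.96% to 11.0%), 10.0% on 3L (8.62% to 11.6%) and 11.1% on 3R (9.74% to 12.7%). The intervals of the shares overlapped between the arms. Median scores of the broad peaks were 26.7 on 2L, 26.1 on 2R, 30.2 on 3L and 30.004 on 3R, again with overlapping 95% intervals, and median widths ran from 1845 bp on 3L to 1916 bp on 2R.

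Along the arms the set was uneven. Over 95 complete bins of 1 Mb the median was 6 broad peaks, and 2 bins had none. These 2 were the last complete bin of 2L (22000001 to 23000000), with 19 narrower peaks, and the first of 2R (1 to 1000000), with 17. Both bins lie at the centromeric end of their arm. The fullest bin was the first of 2L, 1 to 1000000, where 19 of 74 peaks (25.7%) were broad. Next came the first bin of 3L with 18 of 83 (21.7%), 3R:5000001-6000000 with 17 of 104 (16.3%), 3L:3000001-4000000 with 16 of 83 (19.3%) and 3R:26000001-27000000 with 14 of 62 (22.6%). The longest stretch without a broad peak of the set was 1711 kb on 3R, from 3013375 to 4724523. It held 132 peaks of other kinds.

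**Figure D4:**
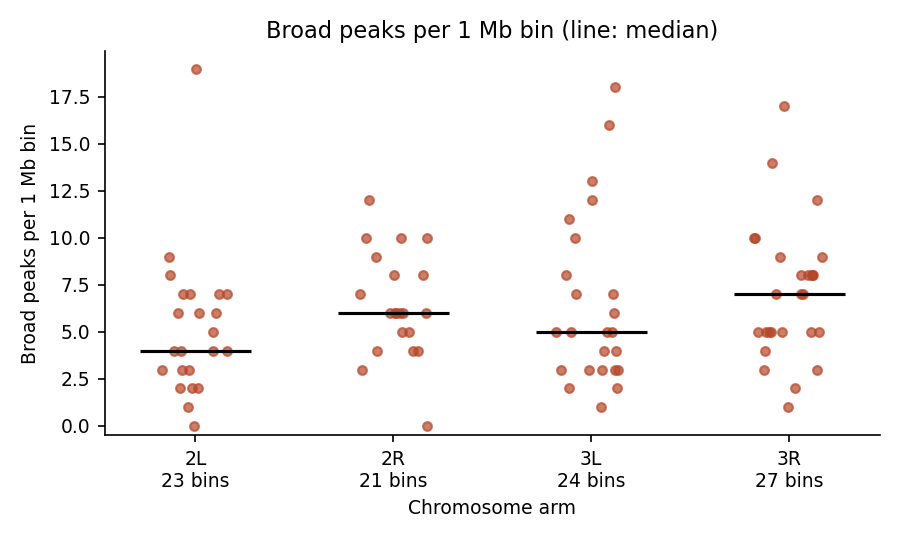
Number of broad peaks in each complete 1 Mb bin (vertical axis) by chromosome arm (horizontal axis), 1 point per bin with the median as a line. Medians are 4 on 2L, 6 on 2R, 5 on 3L and 7 on 3R, and the highest points are the 19 of 2L and the 18 of 3L.

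The 19 broad peaks of the fullest bin of 2L had a median width of 2335 bp and a median score of 27.8, between 9.53 and 76.2. The strongest was 160365 to 162314 (1950 bp, score 76.2), followed by 470151 to 472721 (2571 bp, score 54.8) and 866734 to 868464 (1731 bp, score 49.8). The weakest was 127380 to 130153 (2774 bp, score 9.53), which nearly touched a broad peak of score 37.3. Of the 19, 3 had the highest score within 15000 bp, 6 had no other midpoint within 5000 bp and 10 had another peak less than 500 bp from an edge. The high count was therefore made of peaks of ordinary score, of which both the strongest and the weakest lay in chains.

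When the span of each arm was divided into 3 equal parts, the part farthest from the centromere had the largest broad share on 3 of the 4 arms. On 2L the share was 12.95% in the distal part (57 of 440 peaks, Wilson 95% interval 10.1% to 16.4%) and 7.04% in the centromeric part (28 of 398, 4.91% to 9.98%). On 3L it was 14.8% (85 of 574, 12.1% to 17.9%) in the distal part and 7.61% (34 of 447, 5.49% to 10.4%) in the centromeric part. On 3R the shares were 12.6% (67 of 531, 10.1% to 15.7%) and 9.06% (57 of 629, 7.06% to 11.6%), with overlapping intervals. The middle part of 3R had 11.97% (9.60% to 14.8%), close to its distal part. On 2R the middle part had the largest share, 10.4% (8.06% to 13.2%). The distal part of 2R had 7.91% (36 of 455, 5.77% to 10.8%) and the centromeric part 9.62% (43 of 447, 7.22% to 12.7%), with overlapping intervals. The middle parts of 2L and 3L had 6.92% and 6.89%. The division was chosen after the counts per bin had been seen, and the read coverage of the parts was not analysed here.

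**Figure D5:**
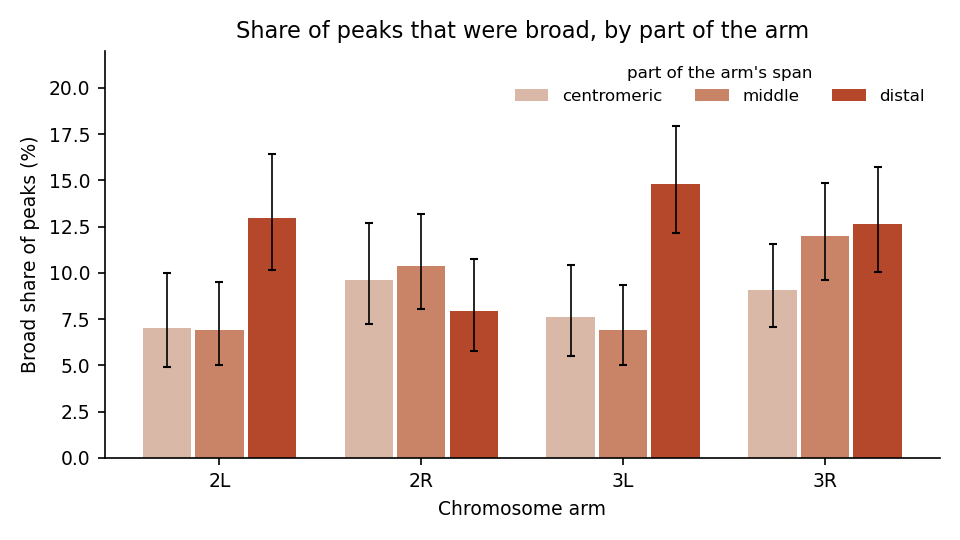
Share of peaks between runs and isolation that were broad (vertical axis, %) in the centromeric, middle and distal part of each arm's span (colours), by arm (horizontal axis), with Wilson 95% intervals. The distal bar is highest on 2L (12.95%), 3L (14.8%) and 3R (12.6%), and on 2R it is the lowest (7.91%).

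The way the deposited scores were written differed between broad and narrower peaks. Most scores in the list have at most 5 decimals, but 70 of the 605 broad peaks (11.6%, 9.26% to 14.4%) have a score with more, against 111 of 5478 narrower peaks (2.03%, 1.69% to 2.43%). For narrower peaks of at least 1000 bp it was 51 of 889 (5.74%, 4.39% to 7.46%), between these shares. A number with 5 decimals divided by a whole number can have such a longer tail, as in an average. Multiplying each long score by small whole numbers showed which one brought it back to 5 decimals. The smallest such number was 2 for 19 broad peaks, 3 for 22, 4 for 14, 5 for 9, 6 for 2, 7 for 3 and 8 for 1. For narrower peaks it was 2 for 87, 3 for 19 and 4 for 5, and never higher. An average can also end within 5 decimals, so these counts may miss averaged scores.

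The share of long scores went with width. It was 0 of 327 in peaks under 300 bp, which allows a share of up to 0.917% at 3 counts of the total (Wilson upper limit 1.16%), and 5.43% at 800 to 999 bp. Among broad peaks it was 9.38% at 1500 to 1999 bp (6.73% to 12.9%), 13.4% at 2000 to 2499 bp (8.53% to 20.4%), 16.2% at 2500 to 2999 bp (9.53% to 26.2%) and 14.3% at 3000 bp and above (7.70% to 24.97%). Broad peaks whose long score needed 2 had a median width of 1888 bp, and those that needed 3 had 1710.5 bp. The median was 2273.5 bp for 4 and 2359 bp for 5. It was 2668.5 bp for 6 (2 peaks), 2633 bp for 7 (3 peaks) and 3096 bp for 8 (1 peak). The medians thus mostly rose with the number, except at 3 and 7, but the last groups are very small and this was not tested. Of the 10 widest, 1 had a long score, 2R:19757614-19761825, which needed 3. None of the 10 highest scores was of this kind. Broad peaks with long scores reached 49.7 at most and had a median of 23.4 (95% interval 21.2 to 26.3), against 30.004 (27.2 to 31.9) for the 535 others. They led their surroundings within 15000 bp in 10 of 70 cases (14.3%, 7.95% to 24.3%), the others in 146 of 535 (27.3%, 23.7% to 31.2%). The order was the same among narrower peaks, so it was not particular to broad ones. Narrower peaks with long scores had a median of 19.4 (17.3 to 23.3), against 25.1 (24.6 to 25.6) for the others. They led in 14 of 111 cases (12.6%, 7.66% to 20.1%), the others in 1395 of 5367 (25.99%, 24.8% to 27.2%). How the long scores were made is not given in the sources used here, and their part in the widths was not tested.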

How the data were processed

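HA-Ubx ChIP-seq peaks were analysed for 2 replicates that share 1 deposited list, and the input had no values of its own here. Reads were aligned with BWA 0.7.12 to dm3 and peaks called with MACS2, per the submitters' processing notes. How replicates and input were combined and which thresholds applied is not given in the sources used here. The deposited score of each peak is the authors' value, and which quantity it is remains unknown. The list was taken as dm3 from those notes, and no coordinate was converted. Its last peaks ended 0.504 Mb (2L) to 4.17 Mb (3R) before the Release 6 arm ends, which cannot by itself tell the builds apart.

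Peaks were classed by the spacing of midpoints and by width, and the classing was tested on simulated data. Medians carry 95% intervals from binomial order statistics, shares Wilson and densities exact Poisson intervals. No test was run, since width and score come from 1 peak call. Calculations ran in pandas 2.3.3 and scipy 1.17.1 under Python 3.11.15, and matplotlib 3.10.9 drew the figures.

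The broad peaks and comparisons were chosen with earlier results of these data known. Named peaks were the 10 highest scores, the 10 widest, the leaders of each arm, those next to the width limit, the 5 closest adjacent pairs and members of the fullest 1 Mb bin. The lowest scores, groups of 4 and the longest stretch were named after their values were seen. Alternatives were 11 planned settings and 2 added after seeing the data.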

Additional observations from a re-analysis of the deposited data

How the results depend on the processing

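Of 139 recalculated values, 105 stayed within the interval of the reported value or, for counts, lengths and densities, within 1.5 times of it, and 34 did not. With a width limit 250 bp lower there were 936 broad peaks (15.4% of peaks under the spacing conditions), at 9.74 per Mb on 2R, 10.2 on 3L and 10.9 on 3R, and the nearest peak was broad for 18.7%. At 2000 bp there were 264 (4.34%), which covered 0.717 Mb at 2.22 per Mb on 2L, 2.79 on 2R, 2.57 on 3L and 3.26 on 3R, and the nearest peak was broad for 4.55%. These shifts follow from the limit itself. With runs of 5 or more the median edge gap was 1291.5 bp. Among the stronger 50% of peaks by score, the broad share was 12.4%, the median score 42.5 for broad and 38.8 for narrower peaks, the edge gap 1676 bp, the share leading its surroundings 33.0% and the density on 2R 4.12 per Mb, with fewer peaks left by construction.

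Joining peaks less than 500 bp apart, with the highest score kept, changed most. It gave 1176 broad peaks (21.1%) covering 3.12 Mb, with a median score of 37.8, an edge gap of 2424 bp, 39.6% leading their surroundings, 28.3% next to a broad peak and densities per Mb of 10.2 on 2L, 12.7 on 2R, 12.8 on 3L and 12.9 on 3R. Leaving out scores with more than 5 decimals gave a broad share of 9.06%. The median score of broad peaks stayed above that of narrower peaks in the 11 planned settings, by 2.14 to 4.397 units without the joining (12.6 units with it, where joined peaks gain both width and the highest score by construction), but lay 0.39 below that of the narrower peaks of at least 1000 bp (28.3). The last 2 settings were chosen after seeing the data. No replicate could be left out. No paired analysis was possible because 1 common list holds both replicates. The depth of each library is unknown.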
